A study of Mus musculus with 8 samples.

Results

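The 10 genes described here encode the MLL protein and the proteins that bring MLL fusions to chromatin or act with them there: Kmt2a, Men1, Psip1, Mllt1, Mllt3, Aff1, Aff4, Dot1l, Mllt10 and Jmjd1c. They were chosen by symbol, not by a measured value, though earlier results of these data were known. Each count file held 24421 gene symbols, and each of the 10 was among the 12623 genes that passed the filter on low counts. RNA was sequenced from leukemic bone marrow cells of C57BL/6 mice that had been transformed with MLL-AF9, a fusion of the MLL gene to the AF9 gene, and that were sorted for high c-KIT, the stem cell factor receptor. The 2 WT libraries came from Ikzf2f/f mice, whose Ikzf2 gene is flanked for deletion and labelled wild type, and the 2 KO libraries from Ikzf2Δ/Δ mice, which had lost it; the fusion and the sort were shared by both groups. The deleted gene encodes Helios, a DNA-binding zinc finger protein related to Ikaros. The labels give neither the deleting agent, the age of the mice, the vector of the fusion nor whether replicates came from separate mice, so the spread behind each p-value is that between libraries and may be technical. The 4 ATAC-seq samples of the series were not analysed here.

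MLL, the product of Kmt2a, is a histone methyltransferase whose amino-terminal part binds menin (Men1) and, through menin, the chromatin reader LEDGF (Psip1), which together hold it at its target genes. In an MLL fusion this part is joined to a partner such as AF9 (Mllt3) or its paralogue ENL (Mllt1), whose carboxy-terminal part recruits the AF4 family scaffolds (Aff1 and Aff4) of the super elongation complex, or the histone methyltransferase DOT1L (Dot1l) with AF10 (Mllt10). The result in leukemic blood cells is sustained transcription of genes such as Hoxa9 and Meis1. JMJD1C, a Jumonji-domain protein, is known as a cofactor on which MLL-AF9 leukemia cells depend.

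Gene counts ranged from 16006081 to 19286090 per library, and a count of 3 equalled 0.15 to 0.186 CPM (a count scaled to its library's total, here normalised by the TMM method). The targeted gene, Ikzf2, was at 283 CPM (WT replicate 1), 271 CPM (WT replicate 2), 10.9 CPM (KO replicate 1) and 26.5 CPM (KO replicate 2). The sorted gene Kit was at 216, 330, 236 and 376 CPM in that order, and Hoxa9 at 318, 334, 312 and 280 CPM. The summed level of the 6 leukemic myeloid progenitor markers, which include both, was 1611 and 1750 CPM in WT, against 8248 and 5738 CPM in KO, where Mpo, the myeloperoxidase gene, made up 7073 and 4311 CPM (286 and 343 CPM in WT). The summed level of 10 neutrophil granule markers, all detected, was 1101 and 4310 CPM in WT, against 13340 and 19600 CPM in KO. WT and KO overlapped for Mmp8, Mmp9 and Retnlg of that list, and Retnlg was highest in WT replicate 2, at 3.50 CPM. The summed level of 8 dendritic cell markers, each detected in at least 1 library, was 325 and 189 CPM in WT, 1858 CPM in KO replicate 1 and 410 CPM in KO replicate 2. In KO replicate 1, Cd74, H2-Aa, H2-Ab1 and H2-Eb1 were at 821, 397, 268 and 282 CPM. Other markers of the list went the other way. Flt3 was lowest in KO replicate 1, at 69.1 CPM, against 248 and 153 CPM in WT and 286 CPM in KO replicate 2. Itgax was highest in WT replicate 1, at 37.1 CPM, against 10.5 CPM in KO replicate 1. Of 9 erythroid markers in the files, 7 were at 0 in every library and the sum ran from 1.75 to 2.20 CPM. The B cell list summed to 18.0 to 36.2 CPM. The T and NK cell list summed to 66.1 to 134.6 CPM, with Cd8a and Ncr1 at 0, and the megakaryocyte list to 23.9 to 129.4 CPM, with Ppbp at 0. KO replicate 1 also stood apart by Xist, the X-inactivation RNA, at 833 CPM against 0.352 to 0.600 CPM in the others, and by the Y-linked gene Ddx3y, at 0.0619 CPM against 70.1 to 109.5 CPM, so it differed from the other 3 libraries in its sex-linked genes. The 10 genes are all autosomal. The part of these cell type and library differences in the values below was not tested, and in sorted bulk cells fewer cells of a type and less RNA per cell cannot be told apart.

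None of the 10 genes passed edgeR's quasi-likelihood test of KO against WT at an adjusted p of 0.05, where 0% of all genes tested did. At an unadjusted p under 0.05 the count was 0 of 10, against 7.67% of all genes. DESeq2 also called 0 of 10, against 2.62% of all genes to which it gave an adjusted p, and voom 0 of 10, against 0%. The lowest adjusted p among the 10 was 0.796 by edgeR and 0.791 by DESeq2, both for Mllt3. Log2 fold changes ran from -0.33 for Jmjd1c to 0.72 for Mllt3, with a median of 0.041, beside -0.0043 over all genes tested. Of the 10, 6 were above 0, against 49.5% of all genes, but with library totals alone as scaling the median turned to -0.027, and Mllt1 and Aff1 turned below 0. For 5 of the 10, Psip1, Mllt1, Mllt10, Aff1 and Aff4, the 95% interval of the fold change lay within 2-fold either way, as it did for 42.8% of all genes. For Kmt2a, Men1, Dot1l, Mllt3 and Jmjd1c the interval reached past a doubling or a halving, so changes of up to that size could not be told from none with 2 libraries a group.

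**Figure D1:**
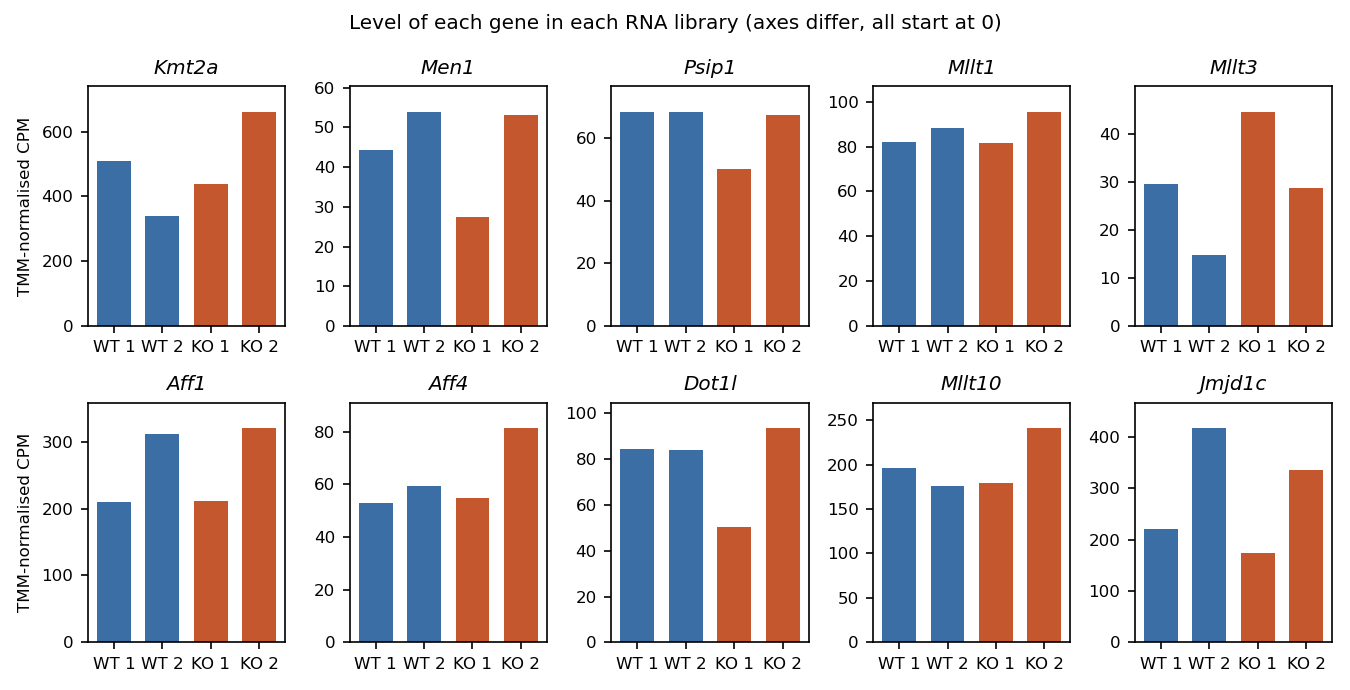
TMM-normalised CPM of each of the 10 genes (vertical axis, a separate scale per gene starting at 0) in the 2 WT (blue) and 2 KO (orange) libraries, 1 bar per library. WT and KO bars overlap in height for every gene but Psip1, whose KO bars, 50.0 and 67.3 CPM, lie below the WT bars, 68.4 and 68.3 CPM.

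The sequences next to the starts of these genes were searched for GGGAA, the core of the sequence that Ikaros family proteins bind. RefSeq (GRCm38.p6) gave 16 windows of 250 bases before a start for 9 of the 10 genes, and GGGAA was present on either strand in 7 windows of 4 genes, Dot1l, Jmjd1c, Men1 and Mllt10. Of 32851 such windows over all genes, 56.2% held it. The longer TGGGAA, which contains GGGAA, was found in 2 windows, both of Men1, against 21.6% of all windows. The windows of Men1 overlap one another and these 2 share a site, so they are not separate finds. Shown here are the outermost windows of Mllt3, which had the highest log2 fold change of the 10 and no match, and of Men1, which had a match (capitals, on the opposite strand) and a log2 fold change of -0.28. The Mllt3 window is chr4:88033408-88033657, minus strand, and the Men1 window chr19:6334729-6334978, plus strand, each ending just before the gene's outermost start. The outermost windows of Kmt2a (log2 fold change 0.37) and Jmjd1c (-0.33, the lowest of the 10) are not shown. Neither held a match, though another window of Jmjd1c did. A match describes the letters only, and its relation to the fold changes was not tested.
Mllt3: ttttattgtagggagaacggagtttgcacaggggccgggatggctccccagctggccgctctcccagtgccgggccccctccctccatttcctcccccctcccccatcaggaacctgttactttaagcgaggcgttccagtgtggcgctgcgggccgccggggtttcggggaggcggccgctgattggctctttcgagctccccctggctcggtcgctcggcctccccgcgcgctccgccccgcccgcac
Men1: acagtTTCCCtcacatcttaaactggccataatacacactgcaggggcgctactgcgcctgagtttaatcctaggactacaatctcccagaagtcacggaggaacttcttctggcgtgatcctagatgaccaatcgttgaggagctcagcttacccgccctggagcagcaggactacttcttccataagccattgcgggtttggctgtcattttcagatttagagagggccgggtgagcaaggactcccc

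Of the proteins that tether the fusion to chromatin, MLL itself had replicate differences that ran in opposite directions in WT and KO. Kmt2a (chromosome 9, 44803355 to 44881352) had 509 and 340 CPM in WT (replicates 1 and 2 in order, here and below), against 439 and 662 CPM in KO. The highest library was KO replicate 2 and the lowest WT replicate 2, with WT replicate 1 above KO replicate 1 between them, so the groups overlapped. KO over WT came to a log2 fold change of 0.37 (SE 0.33, 95% interval -0.44 to 1.19, n = 2 per group, edgeR adjusted p = 0.892). Leaving out WT replicate 1 gave 0.70 and WT replicate 2 gave 0.13, while leaving out KO replicate 1 gave 0.64 and KO replicate 2 gave 0.048. The WT replicates differed by 0.67-fold (replicate 2 over 1) and the KO replicates by 1.51-fold, in opposite directions. Kmt2a counts may hold reads of the MLL part of the fusion transgene, which in such models is often of human sequence; how many was not tested.

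Menin, the adaptor between MLL and LEDGF, and LEDGF itself were lowest in KO replicate 1. Men1 (chromosome 19, 6334979 to 6340894) had 44.3 and 54.0 CPM in WT, against 27.5 and 53.1 CPM in KO. Only KO replicate 1 lay outside the WT range. The log2 fold change of Men1 was -0.28 (SE 0.36, 95% interval -1.19 to 0.63, edgeR adjusted p = 0.936), and it turned to 0.12 without KO replicate 1 and was -0.84 without KO replicate 2. Psip1 (chromosome 4, 83455680 to 83486463) had 68.4 and 68.3 CPM in WT, against 50.0 and 67.3 CPM in KO. It was the 1 gene of the 10 with both KO libraries below both WT libraries, which held for 19.1% of all genes. None of the 10 had both KO libraries above both WT libraries, which held for 18.1%, and 37.2% of all genes did not overlap in either direction. KO replicate 2 lay 0.022 below WT replicate 2 on the log2 scale, less than the counting error of that difference, 0.0586. Its log2 fold change was -0.22 (SE 0.23, 95% interval -0.80 to 0.36, edgeR adjusted p = 0.909), and it was -0.021 without KO replicate 1 and -0.45 without KO replicate 2. Part of Psip1 overlaps the gene Snapc3, and the strand setting of the counting is not given, so reads of the overlap may be missing from or shared between both.

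The fusion partner AF9 and its paralogue ENL, both readers of acylated histones, differed in how far their levels ranged over the 4 libraries, 3.01-fold for Mllt3 and 1.17-fold for Mllt1. Mllt3, which encodes AF9 (chromosome 4, 87769925 to 88033407), had 29.6 and 14.8 CPM in WT, against 44.6 and 28.8 CPM in KO. Replicate 1 was the higher library in both groups, and WT replicate 1 lay just above KO replicate 2, so the groups overlapped by that pair of libraries. Within replicate number 1 the KO library was 1.51-fold and within number 2 it was 1.94-fold the WT library. For Mllt3 the log2 fold change was 0.72 (SE 0.43, 95% interval -0.35 to 1.80, edgeR adjusted p = 0.796). Leaving out WT replicate 1 or WT replicate 2 gave 1.31 or 0.32, and leaving out KO replicate 1 or KO replicate 2 gave 0.38 or 1.005. As for Kmt2a, the counts of Mllt3 may hold reads of the AF9 part of the fusion transgene, and how many was not tested. Kmt2a and Mllt3 were both lowest in WT replicate 2, while Kmt2a was highest in KO replicate 2 and Mllt3 in KO replicate 1.

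ENL showed the narrowest range of the 10. Mllt1 (chromosome 17, 56892608 to 56935509) had 82.1 and 88.2 CPM in WT, against 81.5 and 95.6 CPM in KO. The WT levels lay inside the KO range. Its log2 fold change was 0.056 (SE 0.19, 95% interval -0.43 to 0.55, edgeR adjusted p = 0.984), which is a fold between 0.740 and 1.46. It was -0.064 without KO replicate 2 and 0.17 without KO replicate 1.

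Because AF9 and ENL take the same place in these complexes, their counts were also set against each other within each library, where library scaling drops out. The ratio of Mllt3 to Mllt1 counts was 0.360 and 0.168 in WT and 0.547 and 0.301 in KO. The groups overlapped, and the mean log2 ratio was 0.72 higher in KO (SD 0.78 in WT and 0.61 in KO, exact two-sided permutation p = 0.667; with 2 libraries against 2 the smallest p is 0.333). Without WT replicate 2 the difference was 0.17, and without WT replicate 1 it was 1.27.

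**Figure D2:**
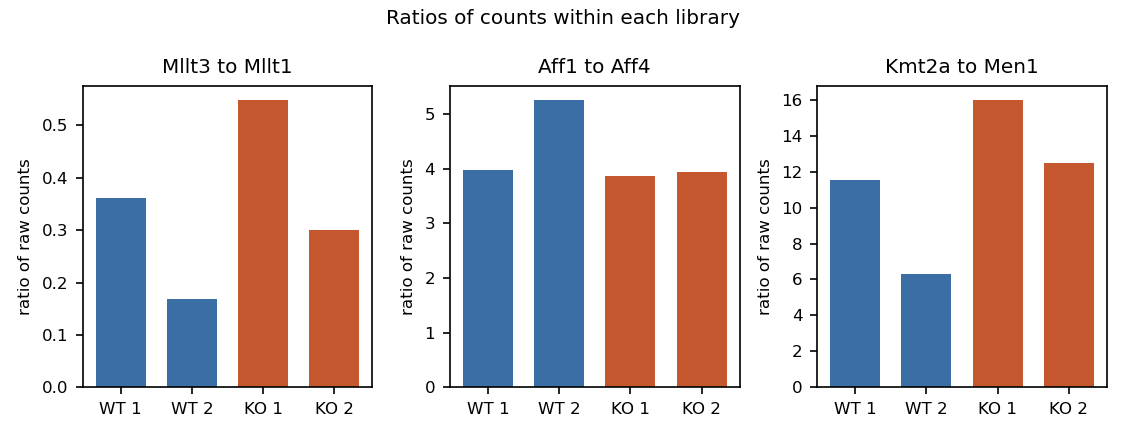
Ratio of raw counts of 2 genes within each library (vertical axis, from 0), with WT libraries in blue and KO libraries in orange. WT replicate 2 has the lowest Mllt3 to Mllt1 ratio (0.168), the highest Aff1 to Aff4 ratio (5.25) and the lowest Kmt2a to Men1 ratio (6.31) of the 4 libraries.

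The AF4 family scaffolds of the super elongation complex, which bind AF9 or ENL and carry the kinase P-TEFb, were both highest in KO replicate 2. Aff1, which encodes AF4 (chromosome 5, 103692362 to 103855322), had 210 and 312 CPM in WT, against 212 and 320 CPM in KO. Its replicates 2 were 1.48-fold and 1.51-fold its replicates 1 in WT and KO, whereas within a replicate number KO and WT differed by 1.01-fold and 1.03-fold. The log2 fold change of Aff1 was 0.026 (SE 0.32, 95% interval -0.78 to 0.83, edgeR adjusted p = 0.997), and it turned below 0, to -0.23, when WT replicate 1 was left out and to -0.30 when KO replicate 2 was. Aff4 (chromosome 11, 53350640 to 53421830) had 52.9 and 59.5 CPM in WT, against 54.9 and 81.3 CPM in KO. KO replicate 2 stood above the other 3 libraries, which lay close together. Its log2 fold change was 0.28 (SE 0.26, 95% interval -0.38 to 0.94, edgeR adjusted p = 0.899), and it was -0.034 without KO replicate 2 and 0.54 without KO replicate 1.

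Counts of Aff1 relative to Aff4 were 3.98 and 5.25 in WT and 3.86 and 3.94 in KO. Both KO libraries lay below both WT libraries in this ratio, by little in the case of WT replicate 1. The mean log2 ratio differed by -0.23 (KO minus WT, SD 0.282 in WT and 0.0197 in KO), and the exact two-sided permutation p of 0.333 is the smallest that 2 libraries against 2 can give. Without WT replicate 2 the difference was -0.029. For Kmt2a relative to Men1 the ratio was 11.5 and 6.31 in WT and 16.0 and 12.5 in KO. The KO libraries lay above the WT libraries, with a mean log2 difference of 0.73 (SD 0.613 in WT and 0.253 in KO, exact permutation p = 0.333, again the smallest possible). Leaving out WT replicate 2 gave 0.29 and leaving out WT replicate 1 gave 1.16, and the ratio carries any transgene reads counted to Kmt2a.

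DOT1L, the histone methyltransferase that AF9 and AF10 bring to transcribed genes, was, like menin, lowest in KO replicate 1. Dot1l (chromosome 10, 80755101 to 80795461) had 84.2 and 84.0 CPM in WT, against 50.4 and 93.4 CPM in KO. The WT libraries differed by less than their counting error, while the KO libraries lay on either side of them, 1.85-fold apart. The log2 fold change was -0.23 (SE 0.33, 95% interval -1.04 to 0.59, edgeR adjusted p = 0.948), and it turned to 0.15 without KO replicate 1 and was -0.74 without KO replicate 2. Mllt10, whose product AF10 is the DOT1L cofactor (chromosome 2, 18055160 to 18212390), had 196 and 176 CPM in WT, against 180 and 241 CPM in KO. KO replicate 1 lay between the WT libraries and KO replicate 2 above them. Its log2 fold change was 0.18 (SE 0.24, 95% interval -0.42 to 0.77, edgeR adjusted p = 0.943), -0.052 without KO replicate 2 and 0.37 without KO replicate 1. Mllt10 overlaps Dnajc1, so reads of that stretch are uncertain for both genes.

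Jmjd1c had the lowest log2 fold change of the 10 and the widest interval. The gene (chromosome 10, 67096351 to 67256326, overlapping Reep3 at one end) had 221 and 417 CPM in WT, against 173 and 335 CPM in KO. In both genotypes replicate 2 was well above replicate 1, by 1.88-fold in WT and 1.93-fold in KO. Within replicate numbers 1 and 2 the KO library was 0.784-fold and 0.805-fold the WT library. The log2 fold change of Jmjd1c was -0.33 (SE 0.45, 95% interval -1.46 to 0.81, edgeR adjusted p = 0.944). With WT replicate 1 left out it was -0.71, with KO replicate 2 left out it was -0.88, and it turned to 0.22 without WT replicate 2 and 0.076 without KO replicate 1.

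**Figure D3:**
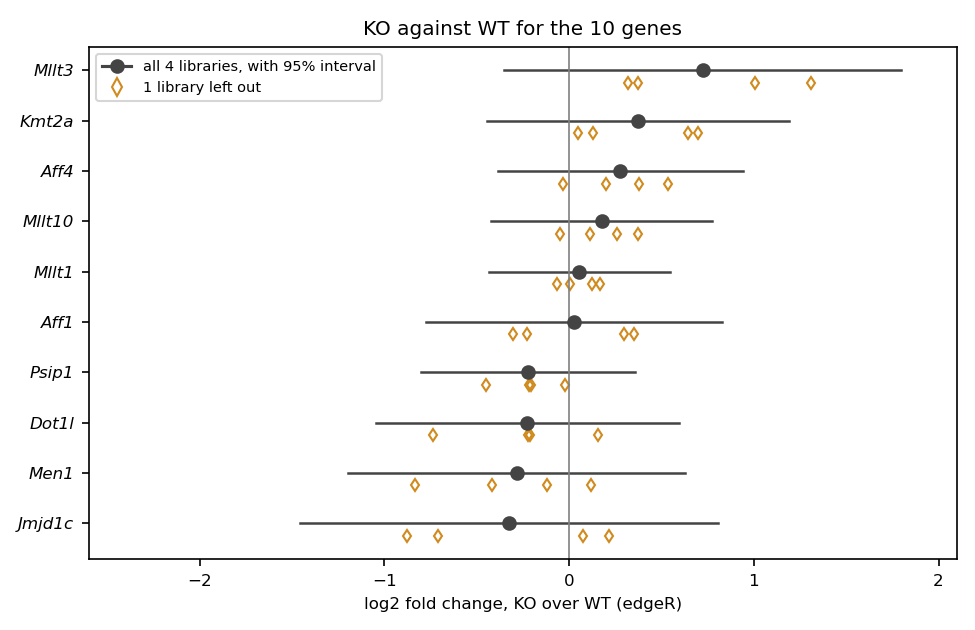
Log2 fold change of KO over WT (horizontal axis) for the 10 genes, from edgeR over all 4 libraries (filled circles, lines for the 95% interval) and with 1 library left out (open diamonds, 4 per gene). All 10 intervals include 0, and the diamonds lie on both sides of 0 for 7 genes.

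Across the 10 genes, the KO replicates differed by more than the genotypes did in most cases, and the WT replicates in fewer. The larger of the WT and KO replicate differences exceeded the KO to WT log2 fold change in 10 of 10 genes, against 74.8% of all genes tested. The KO replicate difference alone exceeded it in 9 of 10, against 61.8%, and the WT replicate difference alone in 6 of 10, all but Psip1, Dot1l, Mllt10 and Aff4, against 51%. The median size of the difference was 0.59 between the KO replicates, 0.23 between the WT replicates and 0.25 between the genotypes. Over all genes tested it was 0.43, 0.27 and 0.26 in that order, so there too the KO replicates differed most. KO replicate 2 was above KO replicate 1 in 9 of 10 genes, all but Mllt3, where 49.2% of all genes were above. In WT, replicate 2 was above replicate 1 in 5 of 10, against 49.8%. The median log2 difference between the KO replicates was 0.58 over the 10 genes and -0.012 over all genes. KO replicate 1 was the lowest library for 5 of the 10, Men1, Psip1, Dot1l, Mllt1 and Jmjd1c, against 30.6% of all genes. KO replicate 2 was the highest for 6, Kmt2a, Dot1l, Mllt1, Mllt10, Aff1 and Aff4, against 25.1%. The direction of KO against WT was the same within both replicate numbers in 6 of 10 genes, against 56% of all genes. It was the same in each of the 4 fits with a library left out for 3 of 10, Kmt2a, Psip1 and Mllt3. That held for 4 of 12 other genes named by the rule given below, and the share over all genes was not computed.

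**Figure D4:**
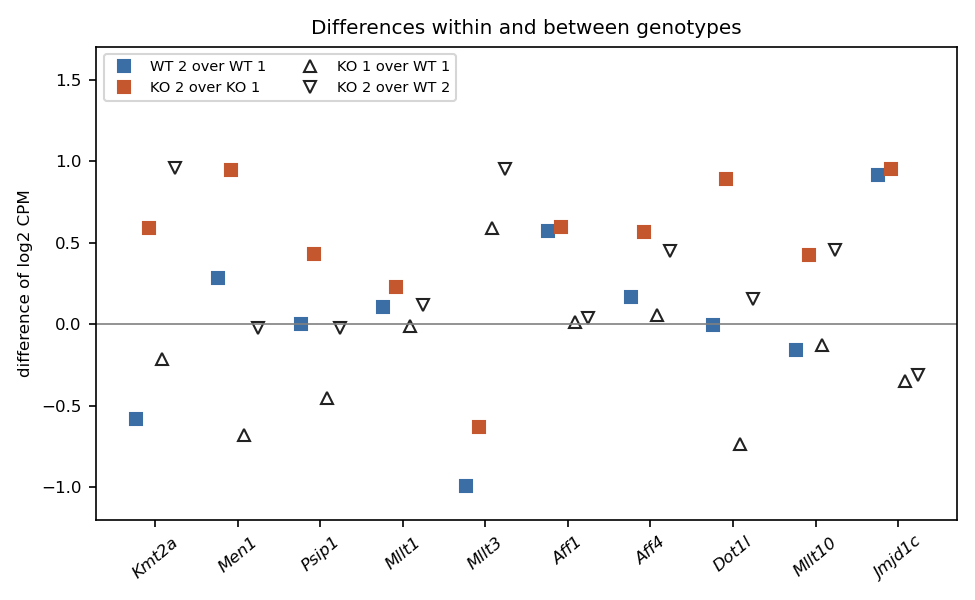
Differences of log2 CPM (vertical axis) for each of the 10 genes, between replicates of a genotype (filled squares, blue for WT and orange for KO) and between KO and WT within a replicate number (open triangles). The orange squares lie above 0 for 9 genes, all but Mllt3, while the triangles scatter on both sides of 0.

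The other subunits of the complexes were examined as lists. Of 19 tested genes of the KMT2 and SET1 methyltransferase complexes, in which MLL and its relatives work with shared core subunits, 13 were above 0 and 6 below, with a median log2 fold change of 0.039. DESeq2 called 1 of them as lower, against 1.07% of all genes, and 0 as higher, against 1.56%; edgeR called 0, with 2 at an unadjusted p under 0.05. The called gene was Ash2l, a core subunit that stimulates the methyltransferase. Ash2l had 191 and 264 CPM in WT, against 117 and 88.6 CPM in KO, with no overlap, and it fell by 1.15 on the log2 scale (SE 0.27, DESeq2 adjusted p = 0.0231, edgeR adjusted p = 0.444). The DESeq2 call for Ash2l was lost without WT replicate 1 (adjusted p = 0.196), WT replicate 2 (0.688) and KO replicate 2 (0.154), and it stayed without KO replicate 1 (0.0259), while its edgeR log2 fold change ran from -1.36 to -0.88 in these fits. Wdr5, the core subunit that docks the methyltransferase, had 240 and 270 CPM in WT, against 200 and 218 CPM in KO (a log2 fold change of -0.29, SE 0.21, edgeR adjusted p = 0.854). Hcfc1, an X-linked adaptor of MLL, had 358 and 401 CPM in WT, against 257 and 502 CPM in KO, the KO libraries lying on either side of WT.

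Of 14 listed elongation factors and P-TEFb genes, 13 were tested, with 7 above 0, 6 below and a median of 0.044. EdgeR, DESeq2 and voom called none of them, and 0 had an unadjusted edgeR p under 0.05. Cdk9, the kinase of P-TEFb, had 166 and 181 CPM in WT, against 171 and 154 CPM in KO. Of 6 genes of the PAF1 complex, which MLL binds on chromatin, 2 were above 0 and 4 below, with a median of -0.11, none was called by edgeR, DESeq2 or voom, and 1 had an unadjusted edgeR p under 0.05. Ctr9, its scaffold, had 131 and 125 CPM in WT, against 61.4 and 91.3 CPM in KO (a log2 fold change of -0.75, SE 0.25, DESeq2 adjusted p = 0.354, edgeR adjusted p = 0.581). With a library left out, the edgeR log2 fold change of Ctr9 ran from -1.06 (without KO replicate 2) to -0.49 (without KO replicate 1). Rtf1 had a log2 fold change of 0.041 (SE 0.22). Of 10 paralogues and partners of AF9, AF10, LEDGF and JMJD1C, 4 were above 0 and 6 below, with a median of -0.064, none was called by edgeR, DESeq2 or voom, and 0 had an unadjusted edgeR p under 0.05. Bcor, a corepressor that binds AF9, had 283 and 243 CPM in WT, against 243 and 249 CPM in KO, and Kdm3b, a paralogue of Jmjd1c, had 223 and 263 CPM in WT, against 213 and 290 CPM in KO. Among 17 target genes of MLL-AF9, 3 were above 0, against 49.5% of all genes, and 14 below, with a median of -0.23. The median log2 difference of KO from WT was -0.57 within replicate number 1 and -0.11 within number 2. Over all genes these medians were -0.014 and -0.0053. Of the 17, 6 lay below WT in both KO libraries, against 19.1% of all genes. These were Hoxa5, Hoxa7, Hoxa9, Hoxa10, Pbx3 and Zeb2, and the Hoxa genes among them belong to 1 gene cluster. Log2 fold changes were -0.14 for Hoxa9 and -0.23 for Hoxa10. None of the 17 was called by edgeR, DESeq2 or voom, with 2 at an unadjusted edgeR p under 0.05. Those 2 were Hoxa5 (log2 fold change -0.78, SE 0.20, edgeR adjusted p = 0.444, DESeq2 adjusted p = 0.0884) and Zeb2 (-0.82, SE 0.22, edgeR adjusted p = 0.456, DESeq2 adjusted p = 0.0942), both transcription factors and named after their values were seen.

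**Figure D5:**
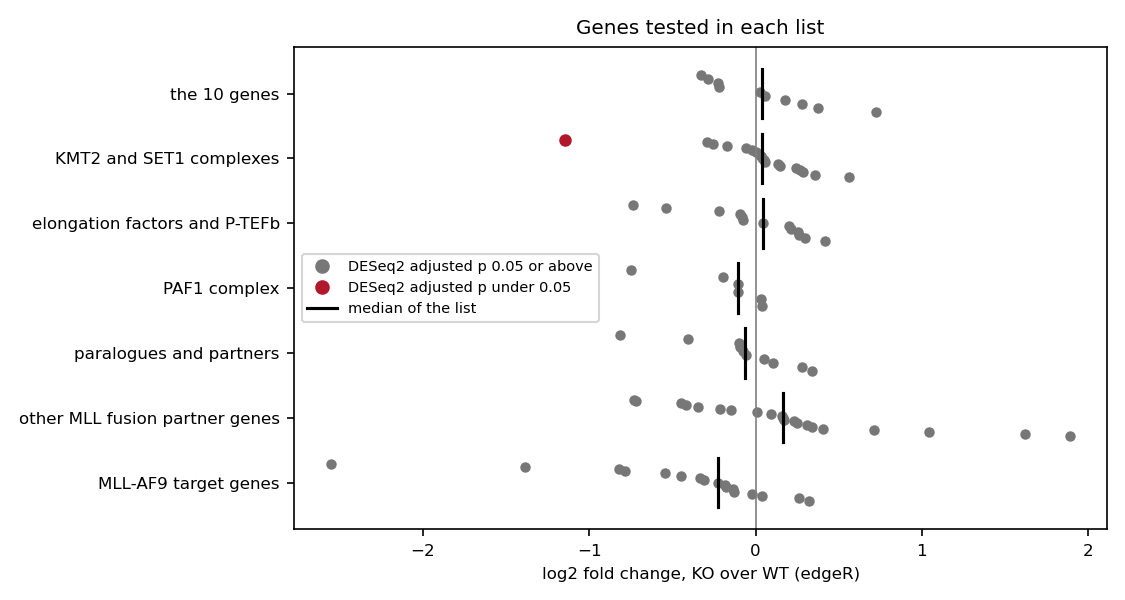
Log2 fold change of KO over WT by edgeR (horizontal axis) for every tested gene of each list, 1 point per gene, with the median as a black bar. The 1 red point, Ash2l, is the only gene of these lists with a DESeq2 adjusted p under 0.05, and the median of the 10 genes, 0.041, lies near that of all genes tested, -0.0043.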

How the data were processed

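RNA-seq counts of 4 libraries were used. The authors deposited raw counts of each gene symbol, with a file for each library. STAR 2.3.0, HTSeq and build mm10 are named in the submitters' processing notes, with no role stated for each tool. Neither annotation nor strand setting is given in the sources used here. The 5 rows that name no gene, 69.3% to 72.4% of all counts, were left out. Within a group, libraries differed by more than counting noise (chi-square per degree of freedom 84.6 in WT and 114.9 in KO), so each was 1 sample. In R 4.3.3, genes were kept by filterByExpr of edgeR 4.0.16 (12623 genes) and scaled by TMM. The KO to WT comparison used the quasi-likelihood F-test of edgeR (robust, no covariate) with Benjamini-Hochberg adjustment over all genes and a threshold of 0.05. SE is the log2 fold change divided by the square root of F, and intervals use the moderated degrees of freedom. DESeq2 1.42.0 (adjusted p for 13422 genes) and voom (limma 3.58.1) were alternatives, with other scalings, filters, a replicate term and each library left out. The functions were tested on simulated data. Counting errors are Poisson and cover counting only. Loci and promoter windows come from RefSeq GRCm38.p6, the assembly that mm10 names. No exon lengths were used here, so levels are not compared between genes.

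Named are the 10 genes and, of each other list, up to 4 genes called by edgeR or DESeq2 and the 2 of highest mean CPM, of which 1 is not reported here. The genes and lists were chosen with earlier results of these data known.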

Additional observations from a re-analysis of the deposited data

How the results depend on the processing

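For the 10 genes, edgeR, DESeq2 and voom called 0 in every alternative run, including DESeq2 with each library left out, which was added after seeing the data. Over all genes, edgeR's 0 calls became 4 with no filter on low counts, 11 with a replicate block, and 0 to 156 with a library left out; DESeq2 called 352, and with a library left out 162, 178, 384 and 390 (WT replicate 1, KO replicate 1, KO replicate 2 and WT replicate 2). The labels do not say what a replicate number marks. Deviations of same-numbered libraries from their group means correlated at 0.191, and log2 CPM at 0.950 between WT and KO replicate 2 and 0.908 between WT and KO replicate 1, beside 0.939 within WT and 0.940 within KO. The median log2 fold change of the 10 genes was -0.027 with library totals alone and ran from -0.18 to 0.23 with a library left out. With library totals alone, which moved all genes by a median of -0.064, log2 fold changes turned to -0.011 for Mllt1, -0.044 for Aff1, -0.078 for Hcfc1, -0.031 for Rtf1, -0.020 for Kdm3b and -0.025 for Myb. Hcfc1 was -0.078 by voom and -0.076 with the replicate block, and Lmo2 0.0014 and 0.0020. With a library left out, log2 fold changes ran from -0.84 to 0.12 for Men1, -0.74 to 0.15 for Dot1l, -0.064 to 0.17 for Mllt1, -0.052 to 0.37 for Mllt10, -0.30 to 0.35 for Aff1, -0.034 to 0.54 for Aff4 and -0.88 to 0.22 for Jmjd1c. Among other named genes they ran from -0.56 to 0.41 for Hcfc1, -0.19 to 0.25 for Rtf1, -0.19 to 0.018 for Bcor, -0.19 to 0.26 for Kdm3b, -0.48 to 0.018 for Sept9, -0.41 to 0.67 for Lasp1, -0.030 to 0.12 for Myb and -0.25 to 0.27 for Lmo2. Where this left 1 library in a group, its spread was taken from the other group. The cause of these turns was not tested beyond the libraries left out. The planned change of gene length was not run, as no exon lengths were used. Counting error alone gave an SE of 0.022 to 0.105 for the log2 difference between replicates of the 10 genes.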

Other observations

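Genes known as other fusion partners of MLL were looked at beside the 10. Of 21 tested, 14 were above 0 and 7 below, with a median log2 fold change of 0.16, beside -0.0043 over all genes, and none was called by edgeR, DESeq2 or voom, with 2 at an unadjusted edgeR p under 0.05. Sept9, a septin of the cytoskeleton, had 427 and 368 CPM in WT, against 284 and 401 CPM in KO. Lasp1, an actin-binding protein, had 223 and 278 CPM in WT, against 189 and 398 CPM in KO, with KO replicate 2 highest as for 6 of the 10 genes. Chosen after its values were seen, Gphn, which encodes gephyrin, had 3.80 and 5.84 CPM in WT, against 19.6 and 10.1 CPM in KO (a log2 fold change of 1.62, SE 0.51, DESeq2 adjusted p = 0.0942, edgeR adjusted p = 0.541).

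Of the MLL-AF9 target list, Myb, a transcription factor of blood progenitors, had 1253 and 1381 CPM in WT, against 1367 and 1336 CPM in KO. Lmo2, a transcriptional adaptor, had 439 and 625 CPM in WT, against 543 and 506 CPM in KO. Mef2c, a transcription factor tied to MLL fusion leukemia and chosen after its values were seen, differed more between the WT libraries than Kmt2a did, with 34.9 and 641 CPM in WT, against 357 and 486 CPM in KO. Kdm6a, an X-linked histone demethylase of the KMT2 complexes also chosen after its values were seen, had 54.0 and 56.2 CPM in WT, against 91.6 and 71.0 CPM in KO, highest in KO replicate 1, the library with Xist at 833 CPM; the part of that library difference in its value was not tested.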
